A study of Mus musculus with 9 samples.

Results

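Solute carrier genes encode membrane proteins that move sugars, amino acids, nucleosides, metals, inorganic ions, vitamins and metabolites across the plasma membrane or the membranes of mitochondria, lysosomes and the Golgi apparatus. The genes described here were taken by symbol, as all names that begin with Slc and a family number, without Slc18a2 and without names that end in os or hold -ps. This gave 370 of the 55274 gene identifiers, in 50 families. Of these, 185 genes in 45 families reached 1 FPKM (fragments counted per kilobase of transcript and scaled to library size) in at least 3 of the 9 libraries and were compared, among 13493 genes that passed the same filter. Of the 185 Slc genes under the filter, 176 stayed under 1 FPKM in every library and 5 were listed at 0 in all of them, and the highest value among them was 4.75 FPKM. The tested genes were sorted by their family number into 13 substrate classes. The name is not always that of a transporter, since Slc9a3r1, Slc9a3r2 and Slc4a1ap match it and encode adaptor or binding proteins.

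The 9 libraries came from bone marrow cells of C57BL/6J mice, 6 to 8 weeks old, taken 4 days after 150 mg/kg of 5-fluorouracil, a drug that kills dividing cells and so leaves the marrow richer in immature ones. All cells were stimulated for 48 h with human interleukin-6, murine interleukin-3 and murine stem cell factor, and were grown with these cytokines throughout. In 3 libraries the cells carried NRASG12D, a RAS protein locked in its active state, from a retroviral vector with a blue fluorescent marker. In 3 they carried NUP98-NSD1, a leukaemia fusion of a nuclear pore protein with a histone methyltransferase, from a vector with a green marker, and in 3 they carried both. Both proteins were made from a retroviral promoter and not from their own genes, cells were sorted by their markers and expanded in culture, and no library of untransduced cells is part of the comparisons. The labels do not say whether the 3 libraries of a group came from separate mice or cultures, so p-values measure the spread between these libraries, which may be technical.

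The NRASG12D vector showed in the Nras row, which held 348 to 479 FPKM in libraries with NRASG12D alone, 245 to 701 in those with both proteins and 47.7 to 51.2 in those with NUP98-NSD1 alone. Sequencing depth, estimated from the smallest steps between low values, lay between 22500000 and 35500000 fragments a library. With 3 fragments as the floor of detection, a transcript of 2 kb could be seen down to 0.0423 to 0.0668 FPKM. Marker RNA of several blood cell types differed with the groups. The summed FPKM of 12 mast cell markers was 30593 to 33302 with NRASG12D, 27091 to 32185 with NUP98-NSD1 and 744 to 4374 with both, with Cpa3 listed at 0 in the NRASG12D libraries. Without Cpa3 the other 11 summed to 30593 to 33302, 13952 to 17807 and 464 to 2552 FPKM, so that the first 2 groups, which overlapped with it, did not overlap. Among these 11, Mcpt4 and Hdc were higher with NUP98-NSD1 than with NRASG12D. Mcpt4 had 415 to 491 against 33.2 to 101 FPKM, and Hdc 51.8 to 169 against 1.60 to 8.72. The 12 granulocyte markers summed to 29.7 to 37.2, 1766 to 6181 and 9056 to 19943 FPKM, and the 10 monocyte and macrophage markers to 41.4 to 55.0, 463 to 889 and 1716 to 4701 FPKM, in the same order. NUP98-NSD1+NRASG12D replicate 2 held the highest value of its group for 11 of the 11 mast cell markers that passed the filter and for 8 of the 10 monocyte and macrophage markers. Every comparison of the groups therefore runs alongside a change in these markers. Their part in the results was not tested, and in RNA of whole cultures fewer cells of a type and less RNA per cell cannot be told apart.

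Solute carriers differ from pumps in that most use no ATP of their own. They let a substrate run down its gradient, exchange it for another, or couple it to the movement of sodium or protons. In blood cells they are known for supplying glucose and amino acids to growing progenitors, for handling iron and zinc in macrophages and erythroid cells, for exporting lactate from cells with high glycolysis, and for filling or emptying the granules and lysosomes of myeloid cells. Some work only as a pair, as the light chains of family 7 do with the heavy chain Slc3a2, and the monocarboxylate carriers Slc16a1 and Slc16a3 with the membrane protein Bsg.

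Without scaling between libraries, the summed FPKM of the tested Slc genes lay between 5399 and 5961. Its share of the FPKM of all genes was 1.03% to 1.06% with NRASG12D, 0.923% to 0.980% with NUP98-NSD1 and 0.841% to 0.884% with both. Median-ratio scaling, an alternative used below, divides values by 0.850 to 0.916 with NRASG12D, 1.04 to 1.16 with NUP98-NSD1 and 0.950 to 1.19 with both. No sums were made on that scale, so the level and order of the sums hold for unscaled FPKM only. A small number of genes made up much of the unscaled sum. The 10 highest held 45.4% of it, and Slc25a5, the ADP/ATP carrier that passes ATP out of mitochondria, held 15.2% alone. Next in mean FPKM over the 9 libraries were Slc3a2 with 348, the taurine carrier Slc6a6 with 201, the haem carrier Slc48a1 with 194 and the mitochondrial phosphate carrier Slc25a3 with 183. At the other end, 29 of the tested genes stayed under 5 FPKM in every library.

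The make-up of this unscaled sum changed between groups. The classes of amino acid, sugar and phosphate carriers stepped down from NRASG12D through NUP98-NSD1 to NUP98-NSD1+NRASG12D, with no overlap between libraries of different groups. Amino acid carriers summed to 1629 to 1794, 1173 to 1415 and 807 to 1060 FPKM, and sugar carriers to 415 to 441, 306 to 349 and 143 to 215 FPKM. In the last 2 groups Slc3a2 alone held 313 to 393 and 160 to 223 FPKM, and Slc45a3 124 to 154 and 2.00 to 14.4. Without Slc3a2 the amino acid sums of these 2 groups overlapped, and without Slc45a3 the sugar sums did. The phosphate class has 2 tested genes, of which 1 was called higher and 1 lower in NUP98-NSD1 against NRASG12D cells. The class of inorganic ion carriers stepped down as well, from 364 to 374 through 293 to 308 to 195 to 257 FPKM, but without the adaptor Slc9a3r1 it summed to 145 to 154, 134 to 143 and 129 to 168 FPKM, and the last group overlapped both others. Monocarboxylate carriers stepped up, from 51.2 to 56.3 through 76.0 to 87.3 to 174 to 459 FPKM. Zinc carriers lay between 360.1 and 435 FPKM in all libraries, and the sums of the 2 groups with NRASG12D overlapped. These sums follow the few highest genes of each class, which are described below with the others.

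**Figure D1:**
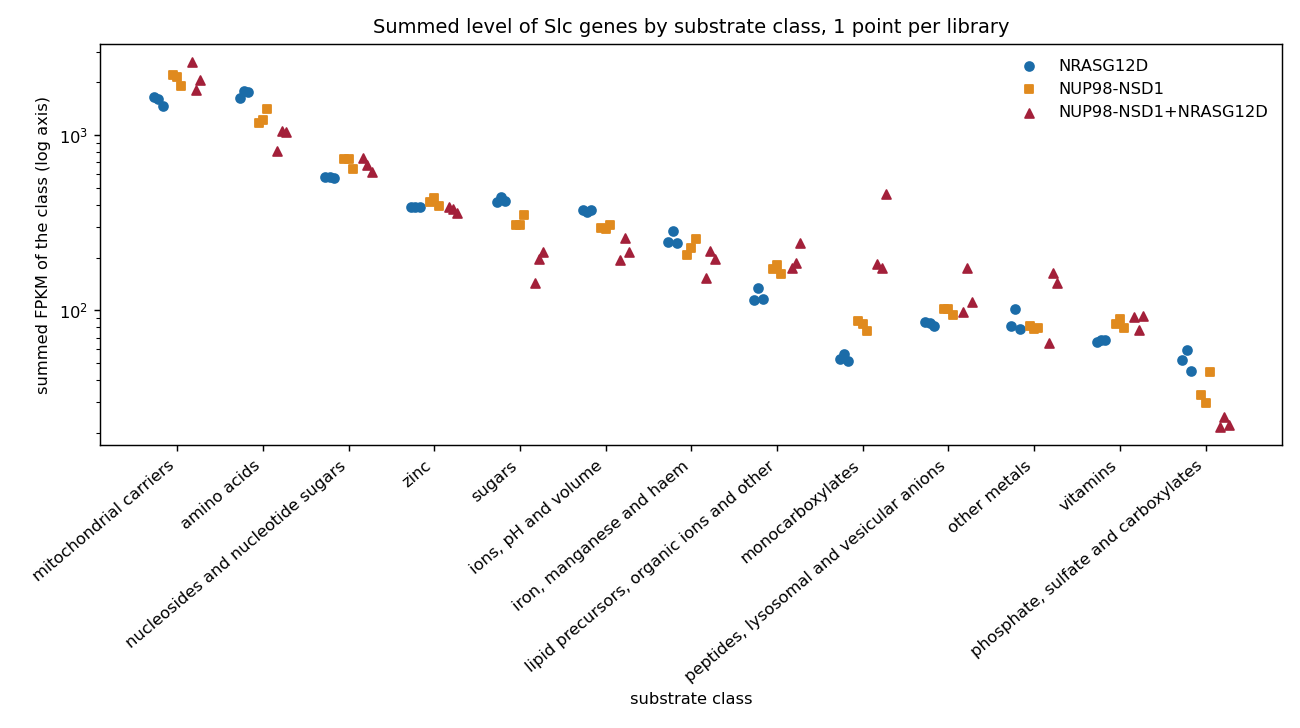
Summed FPKM, without scaling between libraries, of the tested Slc genes of each substrate class (log axis), with 1 point per library and colour and shape for the group. Amino acid and sugar carriers were lowest in the NUP98-NSD1+NRASG12D libraries (807 to 1060 and 143 to 215 FPKM), and monocarboxylate carriers were highest there (174 to 459 FPKM).

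Each pair of groups was compared by limma over its 6 libraries on log2(FPKM + 1), with p adjusted over all 13493 genes and a threshold of 0.05. The first comparison set NUP98-NSD1 against NRASG12D cells, the second NUP98-NSD1+NRASG12D against NRASG12D cells and the third NUP98-NSD1+NRASG12D against NUP98-NSD1 cells, and each pair of these comparisons shares 3 libraries. Fold changes are differences of group means on this scale, with their standard error, and are too small for genes of low FPKM. Between NUP98-NSD1 and NRASG12D cells, 108 of 185 Slc genes (58.4%) passed the test, beside 52.1% of all genes tested, with 76 higher with the fusion and 32 lower. The shares of all genes were 42.2% higher and 9.98% lower, and those of Slc genes were 41.1% and 17.3%. Between NUP98-NSD1+NRASG12D and NRASG12D cells 91 Slc genes passed (49.2%, beside 38.3% of all genes), with 60 higher (32.4%, beside 24.2%) and 31 lower (16.8%, beside 14.1%). In the third comparison 25 passed (13.5%, beside 8.61%), with 11 higher (5.95%, beside 2.3%) and 14 lower (7.57%, beside 6.31%). The median size of the difference, without its sign, was 0.40, 0.70 and 0.41 for Slc genes and 0.39, 0.52 and 0.26 for all genes in the 3 comparisons. In the first comparison the split into higher and lower depended on the scaling, since all genes had a median difference of 0.27 there. After quantile normalization, which brought that median to -0.07, 33 Slc genes were higher (17.8%, beside 19.4% of all genes) and 57 lower (30.8%, beside 25.6%). After median-ratio scaling 41 were higher (22.2%, beside 22.7%) and 55 lower (29.7%, beside 23.3%). In the second comparison the median of all genes was 0.23. Quantile normalization gave 42 higher (22.7%, beside 15.9%) and 44 lower (23.8%, beside 22.7%) there. Median-ratio scaling gave 45 higher (24.3%, beside 19.8%) and 38 lower (20.5%, beside 19.1%). In the third, quantile normalization gave 13 higher (7.03%, beside 3.02%) and 11 lower (5.95%, beside 5.28%). Median-ratio scaling gave 9 higher (4.86%, beside 2.16%) and 8 lower (4.32%, beside 4.46%). Counts of classes and lists after scaling, given below, are to be read beside these shares of all genes.

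Single libraries bore on these counts. In the first comparison 70 Slc genes passed without NUP98-NSD1 replicate 1, beside 37.3% of all genes, and 48 of them were higher. Without replicate 2, 68 passed, beside 35.1% of all genes, and 46 of them were higher. In the second, 62, 64 and 62 passed without NRASG12D replicates 1, 2 and 3, beside 22.7%, 23.4% and 21.8% of all genes. Of these Slc genes, 37, 39 and 35 were higher in NUP98-NSD1+NRASG12D cells. The third comparison was the least firm. Without NUP98-NSD1 replicate 1, 2 or 3 it had 6, 4 and 5 of 185 Slc genes past the threshold. In these fits 3.09%, 2.24% and 2.1% of all genes passed. Without NUP98-NSD1+NRASG12D replicate 1 or 3 it had 54 and 9 Slc genes, beside 18.6% and 3.66% of all genes. Without NUP98-NSD1+NRASG12D replicate 2 it had 25 again, beside 7.99% of all genes. With the replicate block, 16 passed, 7 higher and 9 lower, beside 5.94% of all genes. Slc45a3, Slc30a2, Slc6a9 and Slc35d1 were the genes of this comparison called in all 6 fits that left out a library, against 65 of 108 genes in the first comparison and 60 of 91 in the second. Among the differences named here, those of Slc45a3, Slc20a1, Slc38a10, Slc25a37, Slc1a5 and Slc37a3 in the first comparison were called in 1, 3, 2, 2, 5 and 2 of the 6 fits. Those of Slc2a1, Slc7a11 and Slc37a3 in the second were called in 4, 1 and 4, and the others of these 2 comparisons in all 6.

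**Figure D2:**
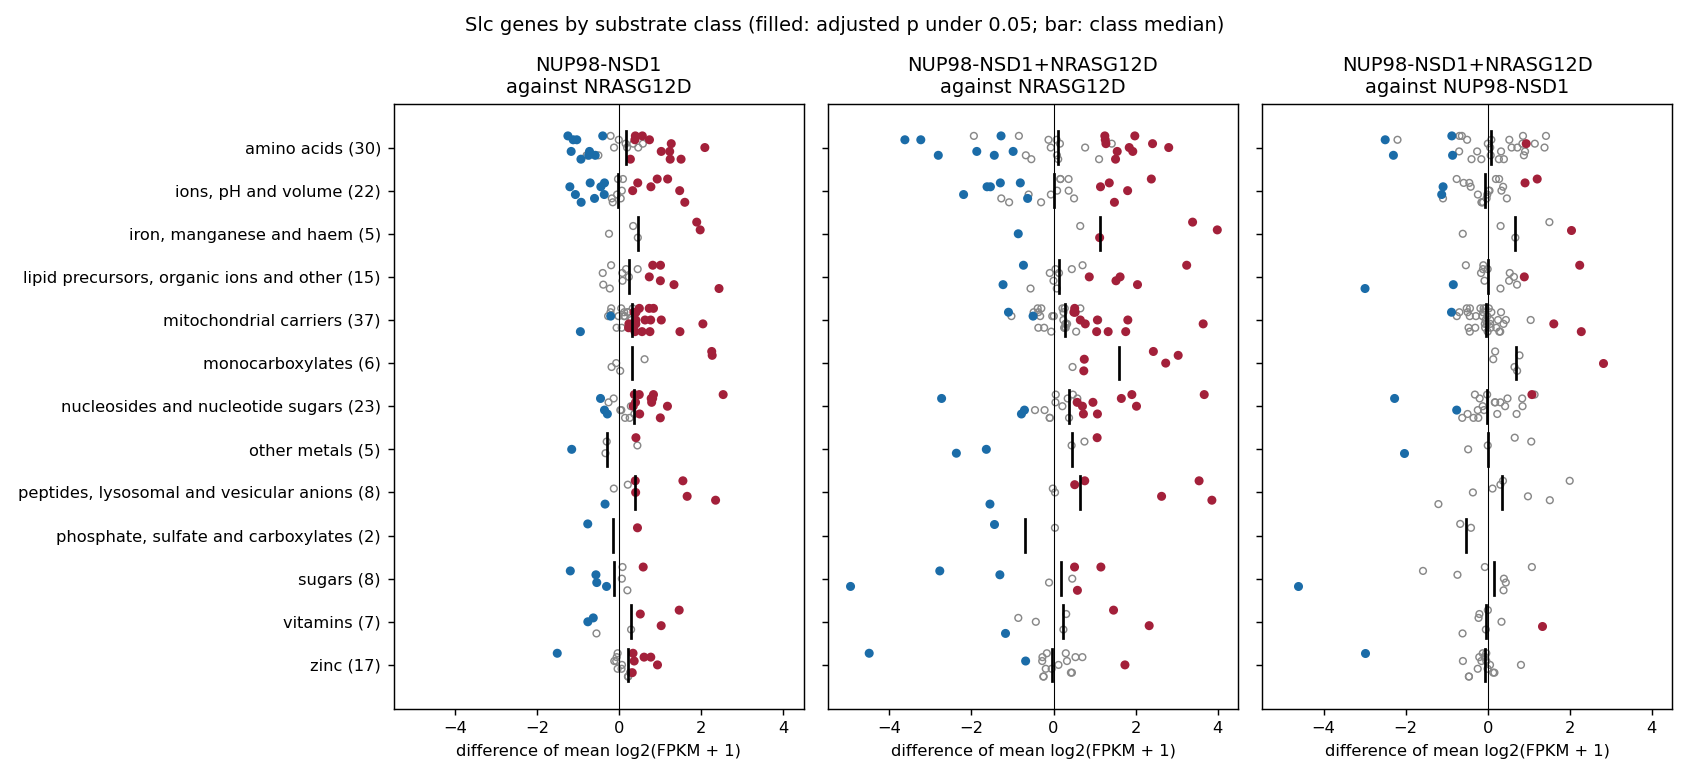
Difference of mean log2(FPKM + 1) (horizontal axis) of each tested Slc gene by substrate class (number of genes in brackets) in the 3 comparisons. Filled points passed an adjusted p of 0.05, red for higher and blue for lower, and the bar is the class median. The differences reached from -4.95 to 3.99 in NUP98-NSD1+NRASG12D against NRASG12D cells and from -1.51 to 2.53 in NUP98-NSD1 against NRASG12D cells.

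When the 3 groups were set in order, 24 of the 185 Slc genes (13%, beside 6.84% of all genes) stepped down from NRASG12D through NUP98-NSD1 to NUP98-NSD1+NRASG12D with no overlap between libraries of different groups, and 25 (13.5%, beside 8.38%) stepped up. Of the 24 that stepped down, 19 had their highest value within the NUP98-NSD1+NRASG12D group in replicate 2, the library with the most mast cell marker RNA of that group. Of the 25 that stepped up, 13 were highest in replicate 3, 8 in replicate 2 and 4 in replicate 1. The same counts were not made for all genes that stepped down or up, so they cannot be called particular to Slc genes. Their relation to the markers was not tested. NUP98-NSD1 cells stood above both other groups for 5 genes (2.7%, beside 3.63%), which were Slc1a5, Slc17a9, Slc22a3, Slc25a42 and Slc35c1, and below both for 1 gene (0.541%, beside 0.356%), Slc25a24.

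Promoters of members that moved together are shown with the letters of motifs that were searched in all RefSeq promoter windows (250 bases before to 50 after the start, both strands), because the 5 motifs belong to factors known to control transporter genes. Of the 185 genes, 141 had a window on GRCm38.p6. The E-box CACGTG was in 14.2% of these windows and in 7.15% of all promoter windows, the antioxidant response core TGACNNNGC in 22.7% and 12.4%, the metal response core TGCNCNC in 55.3% and 51%, the amino acid response element TGATGNAA in 4.26% and 3.97%, and the GATA motif AGATAA in 5.67% and 11.2%. Among genes that stepped up, of 21 windows 3 held the E-box, 3 the antioxidant core, 13 the metal core, 2 the amino acid response element and 2 the GATA motif. Among genes that stepped down, of 17 windows 3 held the E-box, 2 the antioxidant core and 11 the metal core, and none held the other two. These are matches of letters and say nothing of binding. The shares are also of unlike sets, with 1 window for each of 141 tested Slc genes. The 32851 windows of all promoters were not limited to tested genes or to 1 window a gene. The 250 bases before the start follow for a gene that fell (Slc45a3), a macrophage metal carrier that rose (Slc11a1), a mitochondrial carrier that rose (Slc25a13) and a phosphate carrier that fell (Slc20a1), 5′ to 3′ with the motif named in capitals.
Slc45a3 (TGACNNNGC, chr1:131962665-131962914, plus strand): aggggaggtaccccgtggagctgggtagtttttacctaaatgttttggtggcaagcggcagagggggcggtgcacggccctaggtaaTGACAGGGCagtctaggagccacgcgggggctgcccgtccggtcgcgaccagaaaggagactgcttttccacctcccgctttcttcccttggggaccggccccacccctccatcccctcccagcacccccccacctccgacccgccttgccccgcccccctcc
Slc11a1 (TGCNCNC in 2 adjoining matches, chr1:74374953-74375202, plus strand): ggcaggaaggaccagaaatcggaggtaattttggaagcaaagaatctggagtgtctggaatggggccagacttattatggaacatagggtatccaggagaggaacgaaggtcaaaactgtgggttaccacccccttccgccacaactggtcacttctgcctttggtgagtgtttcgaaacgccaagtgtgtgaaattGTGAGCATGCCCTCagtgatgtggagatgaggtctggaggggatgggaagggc
Slc25a13 (CACGTG, chr6:6217174-6217423, minus strand): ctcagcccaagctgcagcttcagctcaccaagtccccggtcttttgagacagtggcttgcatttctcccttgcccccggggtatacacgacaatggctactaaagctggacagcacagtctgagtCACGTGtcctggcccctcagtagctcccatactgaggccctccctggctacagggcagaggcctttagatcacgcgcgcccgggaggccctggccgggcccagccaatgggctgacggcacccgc
Slc20a1 (CACGTG, 2 matches, chr2:129198523-129198772, plus strand): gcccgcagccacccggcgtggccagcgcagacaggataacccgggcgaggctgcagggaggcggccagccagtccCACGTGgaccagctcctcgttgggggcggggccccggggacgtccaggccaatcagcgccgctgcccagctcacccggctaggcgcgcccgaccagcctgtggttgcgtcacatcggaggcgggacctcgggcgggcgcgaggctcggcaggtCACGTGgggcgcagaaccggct

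Among the sugar carriers, Slc45a3 (chromosome 1, 131962967 to 131982969), a proton-coupled carrier first known as prostein, held 174, 157 and 169 FPKM in the NRASG12D libraries, 126, 124 and 154 in the NUP98-NSD1 libraries and 2.45, 14.4 and 2.00 in the NUP98-NSD1+NRASG12D libraries. The 3 groups did not overlap, and it fell by 4.95 ± 0.59 on the log2 scale in NUP98-NSD1+NRASG12D against NRASG12D cells (adjusted p = 0.000994) and by 4.64 ± 0.59 against NUP98-NSD1 cells (adjusted p = 0.00930). Between NUP98-NSD1 and NRASG12D cells it fell by 0.31 ± 0.11 (adjusted p = 0.0428), a call that was kept in 1 of 6 fits without a library. Of its transcript stretches of 50 bases, 12% also occur in other genes.

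The facilitated glucose carriers of family 2 moved in opposite directions. Slc2a3, the high-affinity carrier GLUT3, had 77.9, 104 and 93.5 FPKM with NRASG12D, 33.9, 36.3 and 49.3 with NUP98-NSD1 and 9.01, 26.3 and 7.98 with both. It fell by 1.19 ± 0.17 in NUP98-NSD1 and by 2.77 ± 0.42 in NUP98-NSD1+NRASG12D cells against NRASG12D cells (adjusted p = 0.00191 and 0.00256). The step between the last 2 groups, -1.58 ± 0.43, did not pass (adjusted p = 0.0683). Slc2a6, a lysosomal hexose carrier of phagocytes, fell in the same way, by 0.57 ± 0.10 and by 1.31 ± 0.23 (adjusted p = 0.00419 and 0.00518). Slc2a1, the common carrier GLUT1, had 29.9, 36.8 and 28.9 FPKM with NRASG12D, 38.4, 32.1 and 30.6 with NUP98-NSD1 and 59.9, 57.6 and 107 with both. It rose by 1.15 ± 0.26 in NUP98-NSD1+NRASG12D against NRASG12D cells (adjusted p = 0.0137), and its difference from NUP98-NSD1 cells of 1.07 ± 0.26 did not pass (adjusted p = 0.0517). In the group means Slc2a3 was thus the higher of the pair with NRASG12D and Slc2a1 the higher with both proteins.

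**Figure D3:**
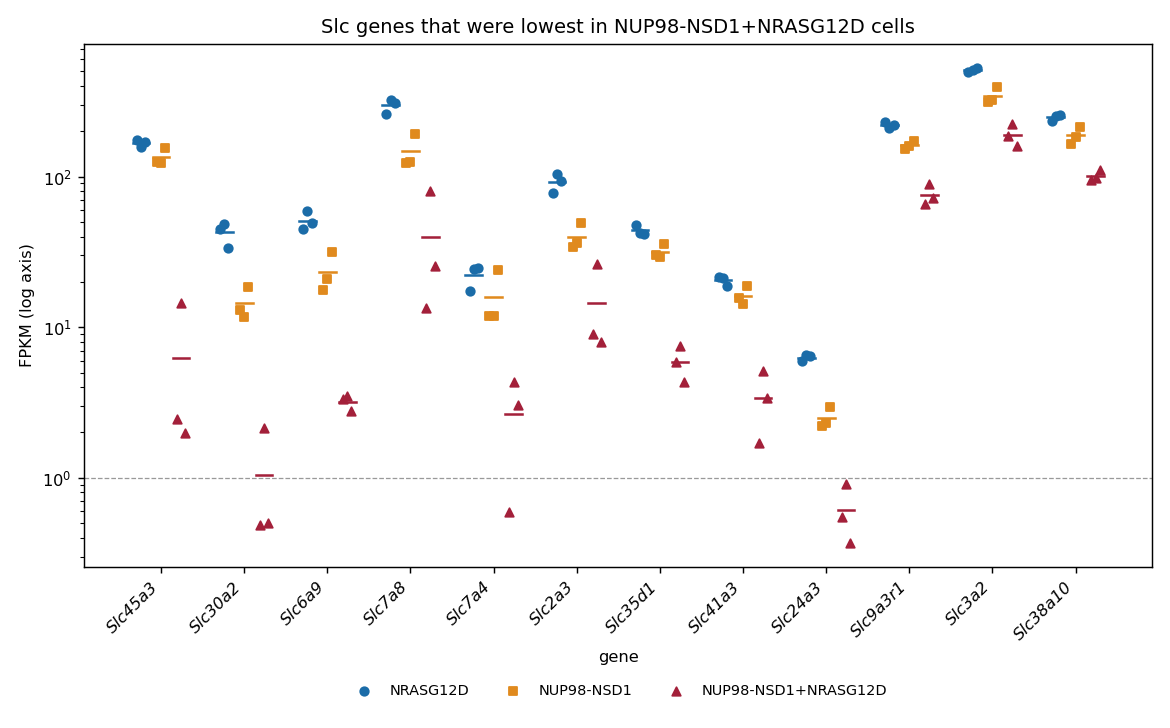
FPKM (log axis) of 12 Slc genes that were lowest in NUP98-NSD1+NRASG12D cells, with 1 point per library and a line at the mean of each group of 3 (dashed line, 1 FPKM). Slc45a3 lay between 124 and 174 FPKM in the other groups and between 2.00 and 14.4 with both proteins, and replicate 2 (the middle triangle) was the highest of the 3 for most genes.

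Among 30 amino acid carriers, 11 rose and 9 fell in NUP98-NSD1 against NRASG12D cells, 10 rose and 7 fell in NUP98-NSD1+NRASG12D against NRASG12D cells, and 1 rose and 4 fell in NUP98-NSD1+NRASG12D against NUP98-NSD1 cells. The medians of the class were 0.17, 0.10 and 0.08, beside 0.27, 0.23 and -0.06 for all genes, and quantile normalization turned the first pair of counts to 5 and 11. In the first comparison 36.7% of the class were higher and 30% lower, beside 42.2% and 9.98% of all genes, and in the second 33.3% and 23.3%, beside 24.2% and 14.1%. In the third the shares were 3.33% and 13.3%, beside 2.3% and 6.31%. Slc3a2, the heavy chain that brings the light chains of family 7 to the cell surface, had 498, 511 and 528 FPKM with NRASG12D, 313, 322 and 393 with NUP98-NSD1 and 186, 223 and 160 with both. It fell by 0.59 ± 0.11 and by 1.44 ± 0.18 against NRASG12D cells (adjusted p = 0.00454 and 0.00115) and by 0.86 ± 0.20 between the last 2 groups (adjusted p = 0.0449, called in 2 of 6 fits without a library).

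The light chains named here, which are not all that were tested, did not follow it as 1 group. Slc7a8, the neutral amino acid exchanger LAT2, had 262, 320.1 and 307 FPKM with NRASG12D, 123, 126 and 191 with NUP98-NSD1 and 13.5, 80.6 and 25.5 with both. The groups did not overlap, and it fell by 1.03 ± 0.18 and by 3.23 ± 0.57 against NRASG12D cells (adjusted p = 0.00393 and 0.00504). Slc7a11, the cystine and glutamate exchanger, was low with NRASG12D at 1.78, 1.85 and 1.27 FPKM and reached 3.15, 10.3 and 16.8 with both, a rise of 1.85 ± 0.50 (adjusted p = 0.0261) that was called in 1 of 6 fits without a library and ranged there from 1.39 to 2.44. Slc7a7, which exports cationic amino acids from macrophages and gut cells, had 0.760, 0.370 and 0.372 FPKM with NRASG12D and 2.53, 5.71 and 7.60 with both, and rose by 1.98 ± 0.34 (adjusted p = 0.00436).

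The glycine carrier Slc6a9 (chromosome 4, 117834506 to 117875198) was among the steadiest falls. It had 44.7, 58.7 and 49.3 FPKM with NRASG12D, 17.8, 20.9 and 31.5 with NUP98-NSD1 and 3.32, 3.50 and 2.79 with both. It fell by 1.12 ± 0.21 in the first comparison, by 3.62 ± 0.17 in the second (adjusted p = 4.24e-05) and by 2.50 ± 0.24 in the third (adjusted p = 0.00556), each in 6 of 6 fits without a library. Unlike for Slc45a3, the 3 NUP98-NSD1+NRASG12D libraries lay close together. Slc7a4, a member of the cationic family whose substrate is not settled, fell by 2.81 ± 0.44 against NRASG12D cells and by 2.30 ± 0.49 against NUP98-NSD1 cells (adjusted p = 0.00305 and 0.0361). Slc38a10, of the sodium-coupled neutral amino acid carriers, fell from 234, 251 and 256 FPKM through 165, 184 and 213 to 95.2, 97.7 and 111, by 0.40 ± 0.11, 1.28 ± 0.14 and 0.88 ± 0.17 in the 3 comparisons (adjusted p = 0.0186, 0.000807 and 0.0257).

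Taurine and creatine carriers fell with NUP98-NSD1 and had a wide spread with both proteins. Slc6a6, which takes up taurine, had 237, 280.2 and 284 FPKM with NRASG12D and 131, 134 and 152 with NUP98-NSD1, a fall of 0.93 ± 0.10 (adjusted p = 0.00104), and 104, 249 and 235 with both, which overlapped the NRASG12D group. Slc6a8, the creatine carrier, fell by 1.25 ± 0.19 in NUP98-NSD1 cells (adjusted p = 0.00273), and with both proteins had 0.243 FPKM in replicate 1 against 6.21 and 6.69 in the others. The GABA carrier Slc6a13 went the other way, from 1.03, 0.557 and 0.469 FPKM to 9.67, 5.69 and 3.99 with NUP98-NSD1 and 7.41, 9.04 and 17.9 with both, rises of 2.09 ± 0.28 and 2.81 ± 0.32 (adjusted p = 0.00179 and 0.000900). Slc6a19, a neutral amino acid carrier known from gut and kidney, fell by 1.17 ± 0.23 and by 1.87 ± 0.20 from a level of 2.74 to 4.31 FPKM. Slc1a5, the glutamine carrier ASCT2, was highest with NUP98-NSD1 at 164, 190.1 and 185 FPKM, against 148, 136 and 130 with NRASG12D and 142, 103 and 137 with both. Its rise of 0.38 ± 0.09 over NRASG12D cells passed (adjusted p = 0.0125), and under other settings it was as small as 0.05.

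The best known monocarboxylate carriers move lactate, pyruvate and related acids together with protons. Of 6 tested, 2 rose in NUP98-NSD1 against NRASG12D cells and 5 in NUP98-NSD1+NRASG12D against NRASG12D cells, which is 33.3% and 83.3% of them beside 42.2% and 24.2% of all genes, with medians of 0.32 and 1.59. Quantile normalization brought these to -0.05 and 1.33, with 1 gene lower in the first comparison and 3 higher in the second. Slc16a1, the broad carrier MCT1, had 3.66, 3.80 and 3.20 FPKM with NRASG12D, 24.1, 22.8 and 16 with NUP98-NSD1 and 39, 16.3 and 20.4 with both. It rose by 2.25 ± 0.16 and by 2.43 ± 0.31 against NRASG12D cells (adjusted p = 0.000218 and 0.00130), and its levels in the last 2 groups overlapped. Slc16a3 (chromosome 11, 120948480 to 120960868), the lactate exporter MCT4, had another order. It held 19, 24 and 20.1 FPKM with NRASG12D and 19.3, 16.3 and 24.8 with NUP98-NSD1, which overlapped, and 86.4, 98.0 and 358 with both. It rose by 2.73 ± 0.51 and by 2.81 ± 0.53 over the other groups (adjusted p = 0.00658 and 0.0251). NUP98-NSD1+NRASG12D replicate 3 stood far above the other 2, and the call against NUP98-NSD1 cells was kept in 3 of 6 fits without a library, with differences of 2.16 to 3.18.

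Slc16a10, which carries aromatic amino acids and thyroid hormone, rose by 2.26 ± 0.23 and by 3.04 ± 0.16 over NRASG12D cells (adjusted p = 0.000825 and 5.54e-05), from 2.53, 1.91 and 1.97 FPKM to 17.4, 16.9 and 9.32 with NUP98-NSD1 and 23.2, 24.6 and 26.3 with both. The partner protein Bsg had 373 to 394, 449 to 499.9 and 427 to 581 FPKM in the 3 groups, and Emb, which pairs with the same carriers, had 42.8 to 50.4, 105 to 198 and 233 to 359.

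**Figure D4:**
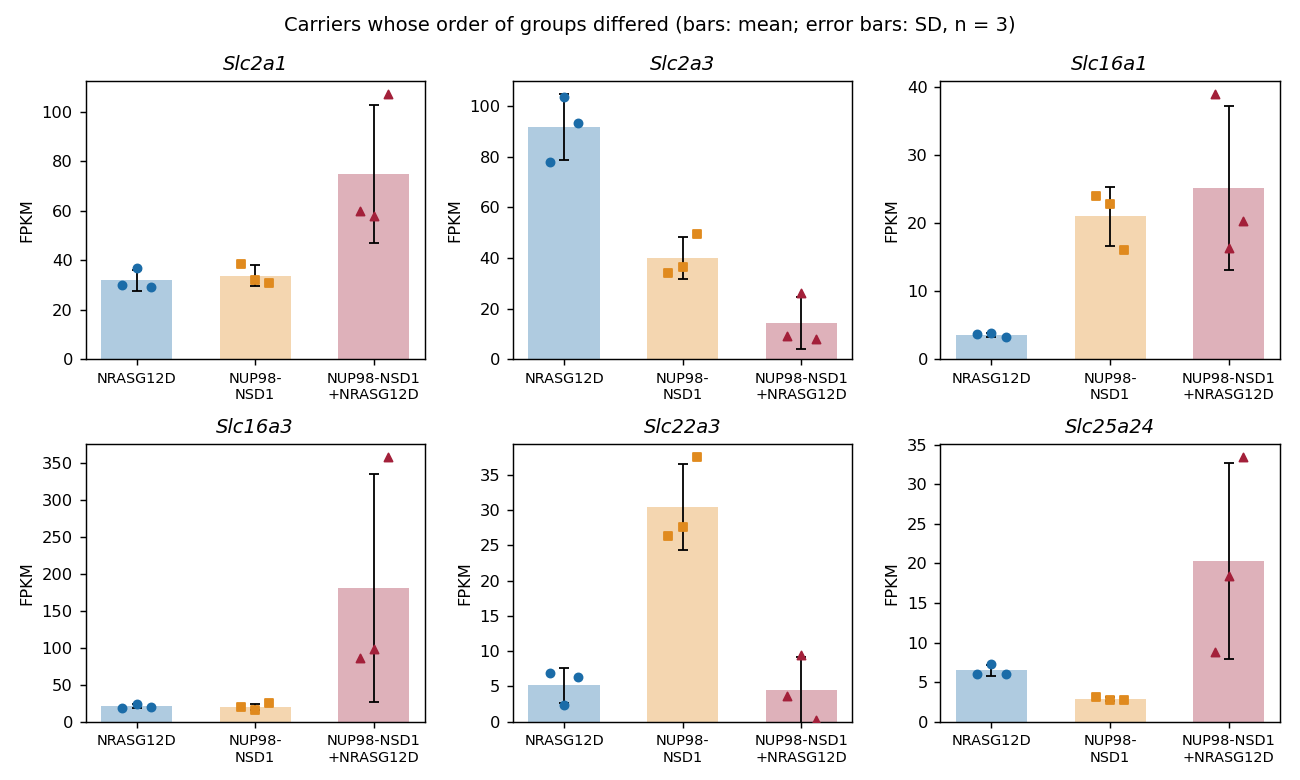
FPKM (linear axis from 0) of 6 carriers in the 3 groups, with bars at the mean, error bars of 1 SD (n = 3) and 1 point per library. Slc2a3 stepped down while Slc2a1 and Slc16a3 were raised in NUP98-NSD1+NRASG12D cells, Slc22a3 was highest in NUP98-NSD1 cells (26.3 to 37.5 FPKM), and Slc25a24 was lowest there (2.72 to 3.16 FPKM).

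Of 17 zinc carriers, 6 rose and 1 fell in NUP98-NSD1 against NRASG12D cells (35.3% and 5.88%, beside 42.2% and 9.98% of all genes), counts that became 1 and 5 under quantile normalization and 2 and 4 under median-ratio scaling. In NUP98-NSD1+NRASG12D against NRASG12D cells 1 rose and 2 fell (5.88% and 11.8%, beside 24.2% and 14.1%). Slc30a2 (chromosome 4, 134343181 to 134354484), which loads zinc into secretory vesicles, was the large change among them. It had 45.1, 48.8 and 33.7 FPKM with NRASG12D, 13, 11.6 and 18.5 with NUP98-NSD1 and 0.484, 2.15 and 0.499 with both. The groups did not overlap, and it fell by 1.51 ± 0.20, 4.49 ± 0.33 and 2.98 ± 0.34 in the 3 comparisons (adjusted p = 0.00164, 0.000167 and 0.00770). As with Slc45a3, replicate 2 was the highest of the NUP98-NSD1+NRASG12D libraries.

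Iron carriers of macrophages were near the floor with NRASG12D and stepped up from there. Slc11a1 (chromosome 1, 74375195 to 74386062), also called NRAMP1, pumps iron and manganese out of phagosomes. It had 0.127, 0.152 and 0.144 FPKM with NRASG12D, 2.63, 3.57 and 3.54 with NUP98-NSD1 and 4.53, 23.2 and 11.7 with both, and rose by 1.89 ± 0.14 and by 3.39 ± 0.49 (adjusted p = 0.000235 and 0.00217). Slc40a1, ferroportin, the iron exporter of the plasma membrane, had 0.0370, 0.103 and 0.224 FPKM, then 3.78, 4.37 and 2.29, then 7.92, 24.7 and 23.6. It rose by 1.97 ± 0.20, 3.99 ± 0.41 and 2.02 ± 0.44 in the 3 comparisons (adjusted p = 0.000818, 0.000552 and 0.0375), the last called in 1 of 6 fits without a library. Slc48a1, which brings haem out of lysosomes, was abundant in all groups and fell by 0.86 ± 0.16 in NUP98-NSD1+NRASG12D against NRASG12D cells (adjusted p = 0.00556), from 228 to 268 FPKM to 120.1 to 144. Slc25a37, mitoferrin 1, which takes iron into mitochondria for haem synthesis, rose by 0.63 ± 0.18 and by 1.07 ± 0.22 (adjusted p = 0.0251 and 0.00885) and reached at most 6.98 FPKM.

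In family 41, 2 of 3 magnesium carriers fell with both proteins against NRASG12D cells, beside 14.1% of all genes. Slc41a3, a magnesium carrier of mitochondria, had 21.6, 21.2 and 18.9 FPKM with NRASG12D, 15.5, 14.2 and 18.8 with NUP98-NSD1 and 1.70, 5.11 and 3.41 with both. It fell by 2.37 ± 0.30 and by 2.03 ± 0.31 in NUP98-NSD1+NRASG12D cells against the other groups (adjusted p = 0.00123 and 0.0135). Slc41a2 fell by 1.16 ± 0.19 in NUP98-NSD1 against NRASG12D cells (adjusted p = 0.00341).

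Of 22 genes in the class of inorganic ion carriers, 7 rose and 8 fell in NUP98-NSD1 against NRASG12D cells (31.8% and 36.4%, beside 42.2% and 9.98% of all genes) and 5 rose and 6 fell in NUP98-NSD1+NRASG12D against NRASG12D cells (22.7% and 27.3%, beside 24.2% and 14.1%). Quantile normalization turned these counts to 4 and 10, and to 4 and 8, and median-ratio scaling to 4 and 10, and to 5 and 7. Slc24a3, a potassium-dependent sodium and calcium exchanger, fell by 1.07 ± 0.12, 2.19 ± 0.18 and 1.12 ± 0.19 in the 3 comparisons (adjusted p = 0.00115, 0.000253 and 0.0191), from 5.92 to 6.55 FPKM to 0.370 to 0.907. Slc4a11, of the bicarbonate carrier family, fell by 1.20 ± 0.17 and by 1.62 ± 0.20 from a level of 2.06 to 3.46 FPKM. Slc8b1, which lets calcium out of mitochondria in exchange for sodium, rose by 1.18 ± 0.24, 2.38 ± 0.22 and 1.20 ± 0.26 (adjusted p = 0.00707, 0.000357 and 0.0371), from 3.58, 5.43 and 3.48 FPKM through 14.1, 11.2 and 7.33 to 21.2, 25.5 and 30.9. Slc4a8, a sodium-coupled bicarbonate carrier, was at 0.0116 to 0.265 FPKM with NRASG12D and at 1.54 to 3.53 with NUP98-NSD1, a rise of 1.60 ± 0.23 (adjusted p = 0.00215). Slc9a3r1, the adaptor that ties ion carriers and receptors to the cytoskeleton, fell by 0.45 ± 0.08, 1.54 ± 0.16 and 1.09 ± 0.17 (adjusted p = 0.00501, 0.000634 and 0.0144). Slc20a1, the sodium-coupled phosphate carrier PiT1, had 46.3, 52.5 and 39.5 FPKM, then 25.1, 20.8 and 35.6, then 13.4, 19.7 and 16.3, and fell by 0.77 ± 0.20 and by 1.44 ± 0.19 against NRASG12D cells (adjusted p = 0.0162 and 0.00153).

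In the class of peptide, lysosomal and vesicular anion carriers, 5 of 8 genes rose and 1 fell in both comparisons against NRASG12D cells (62.5% and 12.5%), beside 42.2% and 9.98% of all genes in the first and 24.2% and 14.1% in the second. Under quantile normalization these counts were 3 and 2, and 3 and 1, and under median-ratio scaling 3 and 2, and 4 and 1. The gene that fell in both was Slc37a3, named here after its values were seen, with 26.4 to 29.1 FPKM with NRASG12D, 19.9 to 23.6 with NUP98-NSD1 and 5.16 to 16.4 with both, and its calls were kept in 2 and 4 of 6 fits without a library. Slc37a2, a sugar phosphate exchanger of the endoplasmic reticulum and lysosomes in macrophages and osteoclasts, had 0.0286, 0.270 and 0.0410 FPKM with NRASG12D, 4.93, 4.53 and 4.46 with NUP98-NSD1 and 7.55, 35.8 and 12.2 with both. It rose by 2.35 ± 0.14 and by 3.86 ± 0.50 over NRASG12D cells (adjusted p = 9.87e-05 and 0.00140), while the difference between the last 2 groups, 1.51 ± 0.50, did not pass (adjusted p = 0.115). Slc15a3, which carries histidine and bacterial peptides out of endolysosomes, had 0.0270 to 0.166 FPKM, then 1.77 to 2.48, then 4.28, 37 and 9.47, and rose by 1.55 ± 0.15 and by 3.55 ± 0.65 (adjusted p = 0.000590 and 0.00591). For Slc15a3, too, the difference between the last 2 groups did not pass. In both genes NUP98-NSD1+NRASG12D replicate 2 was by far the highest of its group. It was also the highest for 8 of the 10 monocyte and macrophage markers, such as C1qa (144 FPKM, against 3.84 and 29.1). The other 2, Ly6c2 and Cd14, were highest in replicate 3. A link between these genes and the markers was not tested. Slc46a3, a lysosomal carrier of the folate family, rose by 1.02 ± 0.15, 2.33 ± 0.29 and 1.31 ± 0.31 (adjusted p = 0.00243, 0.00124 and 0.0487). Slc29a3, the lysosomal nucleoside carrier, rose by 1.17 ± 0.18 and by 2.02 ± 0.43 against NRASG12D cells (adjusted p = 0.00244 and 0.0109).

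**Figure D5:**
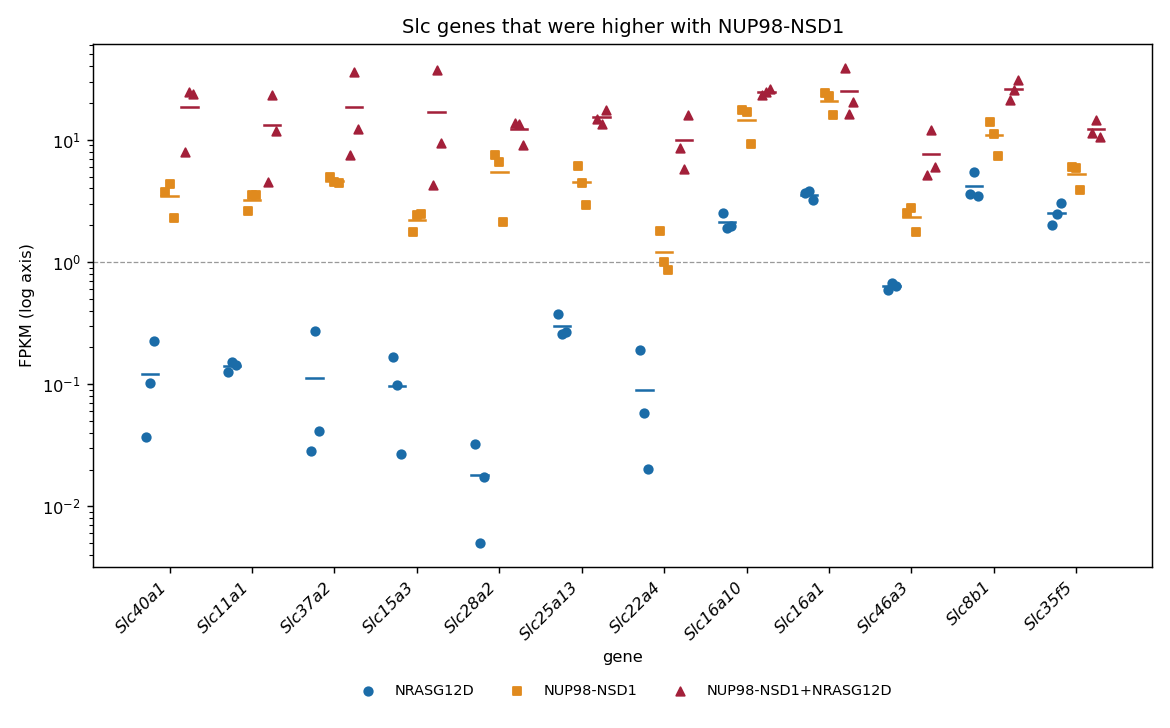
FPKM (log axis) of 12 Slc genes that were higher with NUP98-NSD1, with 1 point per library and a line at the mean of each group of 3 (dashed line, 1 FPKM). Slc40a1, Slc11a1, Slc37a2, Slc15a3, Slc28a2 and Slc25a13 lay under 1 FPKM in all NRASG12D libraries and above it in all others, and Slc16a1 lay between 16 and 39 FPKM in both groups with NUP98-NSD1.

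Of 37 mitochondrial carriers of family 25, 19 rose and 2 fell in NUP98-NSD1 against NRASG12D cells (51.4% and 5.41%, beside 42.2% and 9.98% of all genes). With quantile normalization or median-ratio scaling the counts were 6 and 7, so the class had no direction apart from that of all genes. In NUP98-NSD1+NRASG12D against NRASG12D cells 11 rose and 2 fell (29.7% and 5.41%, beside 24.2% and 14.1%), with 5 and 6 under both scalings. Slc25a5 had 713, 696 and 584 FPKM with NRASG12D, 1020.1, 1009 and 894 with NUP98-NSD1 and 1261, 772 and 939 with both, and rose by 0.55 ± 0.11 in the first comparison (adjusted p = 0.00641). Of its stretches of 50 bases, 33.8% also occur in other genes, so its reads may be shared. Slc25a4, the ADP/ATP carrier of muscle and heart, rose by 0.75 ± 0.15 and by 1.05 ± 0.20 over NRASG12D cells (adjusted p = 0.00646 and 0.00729).

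Slc25a13 (chromosome 6, 6041218 to 6217173), a mitochondrial exchanger of aspartate and glutamate called citrin, was the clearest single change of the class. It had 0.378, 0.259 and 0.265 FPKM with NRASG12D, 6.07, 4.45 and 2.95 with NUP98-NSD1 and 14.9, 13.5 and 17.7 with both, and rose by 2.04 ± 0.21, 3.65 ± 0.17 and 1.61 ± 0.25 in the 3 comparisons (adjusted p = 0.000878, 4.24e-05 and 0.0135). Slc25a12, its near relative aralar, which was picked for comparison after its values were seen, was present in all groups at 35.2, 37.8 and 30.8, then 80.5, 78.1 and 57.3, then 141, 56.3 and 51.7 FPKM. Slc25a24, which exchanges ATP and phosphate in a calcium-dependent way, was lowest with NUP98-NSD1. It had 6.06, 7.32 and 6.07 FPKM with NRASG12D, 3.16, 2.72 and 2.73 with NUP98-NSD1 and 8.86, 18.5 and 33.5 with both. It fell by 0.95 ± 0.12 in NUP98-NSD1 against NRASG12D cells (adjusted p = 0.00142), and rose by 2.28 ± 0.42 in NUP98-NSD1+NRASG12D against NUP98-NSD1 cells (adjusted p = 0.0245, called in 2 of 6 fits without a library).

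Of 23 tested carriers of nucleosides and nucleotide sugars, 12 rose and 3 fell in NUP98-NSD1 against NRASG12D cells (52.2% and 13%, beside 42.2% and 9.98% of all genes). Against the same cells 9 rose and 3 fell with both proteins (39.1% and 13%, beside 24.2% and 14.1%). Quantile normalization gave 6 and 6, and 7 and 5, and median-ratio scaling 7 and 5, and 8 and 3. Slc35d1 was 1 of the 3 that fell in both comparisons. Of the 19 genes of its family 35, 8 rose and 3 fell in the first and 6 rose and 3 fell in the second. These counts are to be read beside the same shares of all genes. Quantile normalization turned them to 2 and 6, and to 4 and 5, and median-ratio scaling to 3 and 5, and to 5 and 3. Slc28a2, which takes up purine nucleosides with sodium, was at or under the floor of detection with NRASG12D, at 0.0322, 0.00503 and 0.0172 FPKM, and had 7.59, 6.64 and 2.11 with NUP98-NSD1 and 13.9, 13.5 and 9.13 with both. It rose by 2.53 ± 0.36 and by 3.67 ± 0.20 (adjusted p = 0.00215 and 6.52e-05), values that depend on the pseudocount and were 5.37 and 6.68 with a pseudocount of 0.1. Of its stretches of 50 bases, 35.4% also occur in Gm14085. Slc29a1, the equilibrative carrier ENT1, rose by 0.78 ± 0.11 in NUP98-NSD1 against NRASG12D cells (adjusted p = 0.00179), from 34.3 to 41 FPKM to 58.8 to 69.9. Slc35d1, which brings UDP-sugars into the endoplasmic reticulum for proteoglycan synthesis, had 47.7, 42.4 and 41.5 FPKM with NRASG12D, 30.4, 29.4 and 35.5 with NUP98-NSD1 and 5.86, 7.49 and 4.31 with both. It fell by 0.46 ± 0.10, 2.73 ± 0.20 and 2.27 ± 0.21 (adjusted p = 0.00961, 0.000173 and 0.00542), and its levels in the last group were well apart from both others. Slc35f5, a family member without a settled substrate, rose by 0.83 ± 0.18, 1.91 ± 0.20 and 1.08 ± 0.22 (adjusted p = 0.00878, 0.000576 and 0.03).

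Vitamin and organic ion carriers closed the set. Slc19a1, the reduced folate carrier, had 12.1, 12.9 and 12.3 FPKM with NRASG12D, 37.4, 41.1 and 30.2 with NUP98-NSD1 and 52.7, 21.1 and 41.6 with both, and rose by 1.46 ± 0.12 and by 1.46 ± 0.32 over NRASG12D cells (adjusted p = 0.000389 and 0.0116). Slc22a4, which carries ergothioneine and carnitine, had 0.0201 to 0.190 FPKM with NRASG12D, 0.857 to 1.79 with NUP98-NSD1 and 8.58, 5.78 and 15.8 with both, and rose by 1.00 ± 0.19, 3.24 ± 0.33 and 2.24 ± 0.35 (adjusted p = 0.00504, 0.000534 and 0.0150). Slc22a3, an organic cation carrier that takes up histamine and other amines, had 6.84, 2.31 and 6.38 FPKM with NRASG12D, 26.3, 27.5 and 37.5 with NUP98-NSD1 and 3.69, 9.52 and 0.212 with both. The NUP98-NSD1 libraries lay above all others, and the other 2 groups overlapped. It rose by 2.43 ± 0.33 in NUP98-NSD1 against NRASG12D cells (adjusted p = 0.00183), and fell by 2.99 ± 0.72 in NUP98-NSD1+NRASG12D against NUP98-NSD1 cells at the edge of the threshold (adjusted p = 0.04996, called in 2 of 6 fits without a library).

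Of 46 Slc genes listed for their roles in blood cells, 41 were tested. In the first comparison 20 of them rose and 9 fell, in the second 15 rose and 8 fell, and in the third 2 rose and 5 fell, with medians of 0.27, 0.30 and 0.00. Their shares were 48.8% higher and 22% lower, 36.6% and 19.5%, and 4.88% and 12.2%, beside the shares of all genes given above (42.2% and 9.98%, 24.2% and 14.1%, and 2.3% and 6.31%). Quantile normalization turned the first pair of counts to 11 and 10 and the second to 13 and 9, and median-ratio scaling to 11 and 10 and to 12 and 8. Of 21 ABC transporter genes tested, which use ATP, 11 rose and 4 fell in NUP98-NSD1 against NRASG12D cells, 10 rose and 5 fell in NUP98-NSD1+NRASG12D against NRASG12D cells and 1 rose and 3 fell in the third comparison. These were 52.4% and 19%, 47.6% and 23.8%, and 4.76% and 14.3% of them, to be read beside the same shares of all genes, and the first pair of counts was 7 and 6 under quantile normalization and 10 and 6 under median-ratio scaling. Of 18 tested members of solute carrier families with other symbols, such as the mitochondrial pyruvate carrier, 10 rose and 2 fell, then 7 rose and 3 fell, and in the third comparison 1 fell. These were 55.6% and 11.1%, then 38.9% and 16.7%, and in the third 5.56% lower. Quantile normalization gave 2 higher and 5 lower in the first comparison and 4 and 4 in the second, and median-ratio scaling 4 and 5, and 5 and 3. Of 3 Slco genes tested, carriers of organic anions, 1 rose and 2 fell in the first comparison (33.3% and 66.7%). In each of the others 1 fell (33.3%), again beside the shares of all genes, and the medians were -0.55, -0.68 and -0.13.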

How the data were processed

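Per the labels, reads were sequenced from both ends over 50 bp, and the submitters' processing notes name GRCm38.p6, STAR 2.7.2a and Cufflinks 2.2.1. The methods name the GENCODE M22 annotation. The values the authors deposited are FPKM, and no further scaling between libraries, strand setting or handling of reads with several alignments is stated. Each table held 55330 lines for 55274 identifiers, and lines of the same identifier were summed. Coordinates are on GRCm38, counted from 1, and equalled those of GENCODE M21 for 365 of 370 Slc genes.

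FPKM are not counts, so the count test named in the study's methods was not used. Genes that reached 1 FPKM in 3 or more of 9 libraries were compared on log2(FPKM + 1). The fits used R 4.3.3 and limma 3.58.1, with lmFit and a variance trend in eBayes, on the 6 libraries of each pair of groups, with Benjamini-Hochberg adjustment over all genes tested and a threshold of 0.05. The script was tested on simulated data. The depth was estimated from the step size of low FPKM in 3386 single-transcript genes over 2500 bp, and the floor of 3 fragments covers counting error only, since the reads carry no molecular identifiers. Python 3.11.15 with pandas 2.3.3, numpy 2.4.6 and matplotlib 3.10.9 served for tables and plots.

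The Slc genes, the substrate classes and the gene lists were chosen with earlier results of these data known. Named are the 8 genes with the largest rise and the 8 with the largest fall per comparison, past the threshold and without overlap between groups, the gene of each class with the largest difference, the 10 most abundant genes and 46 genes listed for their roles in blood cells. Alternatives were a pseudocount of 0.1, no filter, quantile normalization, median-ratio scaling, a fit on all 9 libraries, array weights, a replicate block and fits without each library. Groups and replicate numbers come from the labels, which do not say that a number marks a pair. Promoter windows are from RefSeq.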

Additional observations from a re-analysis of the deposited data

How the results depend on the processing

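The 100 log2 differences named for single genes kept their sign in all alternatives listed. Of their 1300 refitted values, 139 lost the call and 10 gained it, most of them in NUP98-NSD1+NRASG12D against NUP98-NSD1 cells. The counts of Slc genes moved more. For NUP98-NSD1 against NRASG12D cells, the higher and lower counts of 76 and 32 became 33 and 57 with quantile normalization, 41 and 55 with median-ratio scaling and 35 and 11 with all 9 libraries in 1 fit, and without single libraries they were 46 to 82 and 22 to 38. For NUP98-NSD1+NRASG12D against NRASG12D cells, fits without a library gave 35 to 63 higher and 25 to 36 lower. For NUP98-NSD1+NRASG12D against NUP98-NSD1 cells, the counts of 11 and 14 became 0 and 2 without the filter on low values (limma, 356 Slc genes, 78 with an unadjusted p under 0.05), 9 and 8 with median-ratio scaling, 20 and 25 with all 9 libraries in 1 fit, and 35 and 33 with array weights, and 0 to 31 and 4 to 23 without single libraries. The lowest of these was without NUP98-NSD1 replicate 2, with 49 genes at an unadjusted p under 0.05. Of all genes, this comparison called 0.4% without the filter, 16.7% with all 9 libraries in 1 fit and 25.9% with array weights. Without single libraries the share of all genes called was 35.1% to 58.9%, 21.8% to 46.9% and 2.1% to 18.6% in the 3 comparisons. The cause of these shifts was not tested. Fits without the filter adjusted for more genes, and fits without a library had fewer libraries, and neither was tested apart from other changes of the fit.

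Same-numbered libraries deviated from their group means with correlations between -0.18 and 0.16, so the numbers were not taken as pairs. With the replicate block the third comparison had 7 higher and 9 lower Slc genes, and the first and second had 73 and 31, and 54 and 30. Of all genes, 5.94%, 50.9% and 33.6% passed in these fits, in the same order.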

Other observations

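Slc6a4, the serotonin carrier, passed the filter on low values through single libraries. It had 4.65 FPKM in NRASG12D replicate 2 against 0.247 and 0.740 in the other NRASG12D libraries, and 3.41 in NUP98-NSD1+NRASG12D replicate 2 against 0.335 and 1.48, while the NUP98-NSD1 libraries lay between 0.278 and 0.382, and no comparison of it passed the test. Among Slc genes under the filter, 9 reached 1 FPKM in 1 or 2 libraries. Slc44a4, which carries thiamine pyrophosphate, was at 0.0137 FPKM or less in the NRASG12D libraries and at 1.70, 0.318 and 0.554 in the NUP98-NSD1+NRASG12D libraries.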
